A study of Mus musculus with 8 samples.

Results

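The genes described here belong to families named for kelch and BTB domains, from which adaptors of cullin-3 ubiquitin ligases are known. The name does not show that role for each member, and Kbtbd8os is annotated as antisense with no coding exon. With earlier results of these data known, members were chosen by a rule on gene symbols. It took every gene of the deposited table whose name begins with Klhl, Kbtbd, Rcbtb or Btbd followed by a digit. That rule found 90 of the 47729 genes, namely 36 Klhl, 10 Kbtbd, 2 Rcbtb and 42 Btbd genes. RNA was sequenced in 8 libraries of sorted C57BL/6 mouse bone marrow cells, 1 mouse per library. All 8 mice had received marrow of donors given 5-fluorouracil, infected with a BCR-ABL1 and RFP retrovirus, after irradiation with 900 cGy. In 4 of them the cells also carried a Venus lentivirus with a scrambled shRNA, and in the other 4 the same vector with an shRNA against Fubp1, which encodes a single-strand nucleic acid binding protein. The sorted cells were alive, negative for lineage markers and positive for both reporters, so BCR-ABL1 driven from a virus was common to both groups. Neither the age of the mice nor the shRNA sequence was given in the labels used here. Each library is a separate mouse, so p-values weigh differences against the spread between mice.

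Cullin-3 is the scaffold of a family of ubiquitin ligases. A BTB domain docks an adaptor onto cullin-3, and a second region, often a propeller of kelch repeats, holds the protein to be ubiquitylated, so the choice of adaptor sets the substrate. In the Rcbtb proteins that second region is a set of RCC1-like repeats. The ligase is switched on when NEDD8 is attached to the cullin and switched off when the COP9 signalosome removes it. Known adaptors act in mitosis, vesicle coats, WNK kinase turnover, insulin signalling and ribosome production.

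Total counts per library ran from 22465303 to 44761356. On the first principal component, with 62.9% of the variance over 13462 tested genes, knockdown replicate 3 lay at -19.8, among the scrambled libraries (-41.4 to -15.3), while the other knockdown libraries lay at 25.1 to 66.7. Fubp1 itself measured 296, 284, 291 and 396 CPM (counts scaled to the size of the library) in the scrambled libraries and 281, 228, 220.4 and 239 CPM in the knockdown libraries, here and below in the order of replicates 1 to 4. The groups did not overlap, but the difference missed the threshold (log2 fold change -0.39, edgeR adjusted p = 0.0604). Fubp1 passed it in 0 of the 8 edgeR fits that left a library out (lowest adjusted p = 0.0575). In the authors' deposited DESeq2 results its adjusted p was 0.0157. Progenitor and erythroid markers were present in every library (summed over 8 genes, 354 to 752 CPM, and over 7 genes, 3413 to 5118 CPM), and the defining lymphoid markers Ms4a1 (B cells) and Cd3e (T cells) were at 0 in all 8. The B cell list (1 of 6 genes tested) still summed to 0.167 to 0.805 CPM in the scrambled and 0.476 to 3.71 CPM in the knockdown libraries. The T cell list (1 of 6 tested) summed to 1.45 to 2.70 and 2.92 to 12.2 CPM without overlap, nearly all of it Lck (edgeR adjusted p = 0.0881). Of 7 erythroid markers 1 rose and 3 fell at an edgeR adjusted p under 0.05, and of 5 megakaryocyte markers 2 rose. Over all tested genes 8.02% rose and 7.29% fell at that threshold. The megakaryocyte markers summed to 68.0 to 86.4 CPM in the scrambled and 131 to 213 CPM in the knockdown libraries. The 5 early granulocyte markers Mpo, Elane, Prtn3, Ctsg and Ms4a3 summed to 35.4 to 329.7 CPM in the scrambled libraries and to 1963, 940.1, 85.8 and 3583 CPM in knockdown replicates 1 to 4. In such sorted bulk samples, more or fewer cells of a type and more or less RNA per cell cannot be told apart.

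Of the 90 members, 40 had enough counts to be tested, and 7 of these (17.5%) were called by edgeR's quasi-likelihood test at an adjusted p under 0.05, beside 15.3% of all tested genes. The 4 that fell were Rcbtb1, Klhl23, Kbtbd8 and Klhl12 (4 of 40 members, 7.29% of all tested genes). The 3 that rose were Klhl5, Klhl36 and Rcbtb2 (3 of 40 members, 8.02% of all tested genes). The share of members called was therefore near the background, and the family did not move as a block: the fitted change was above 0 in 18 members and below 0 in 22, with a median log2 fold change of -0.01, against 0.00 over all tested genes. The groups did not overlap in 7 of the 40 members, 2 higher and 5 lower. Among all tested genes 20.7% did not overlap, 9.54% higher and 11.1% lower. The threshold of an unadjusted p under 0.05 was passed by 11 members and by 33.5% of all tested genes. Differences are given as knockdown minus scrambled throughout.

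**Figure D1:**
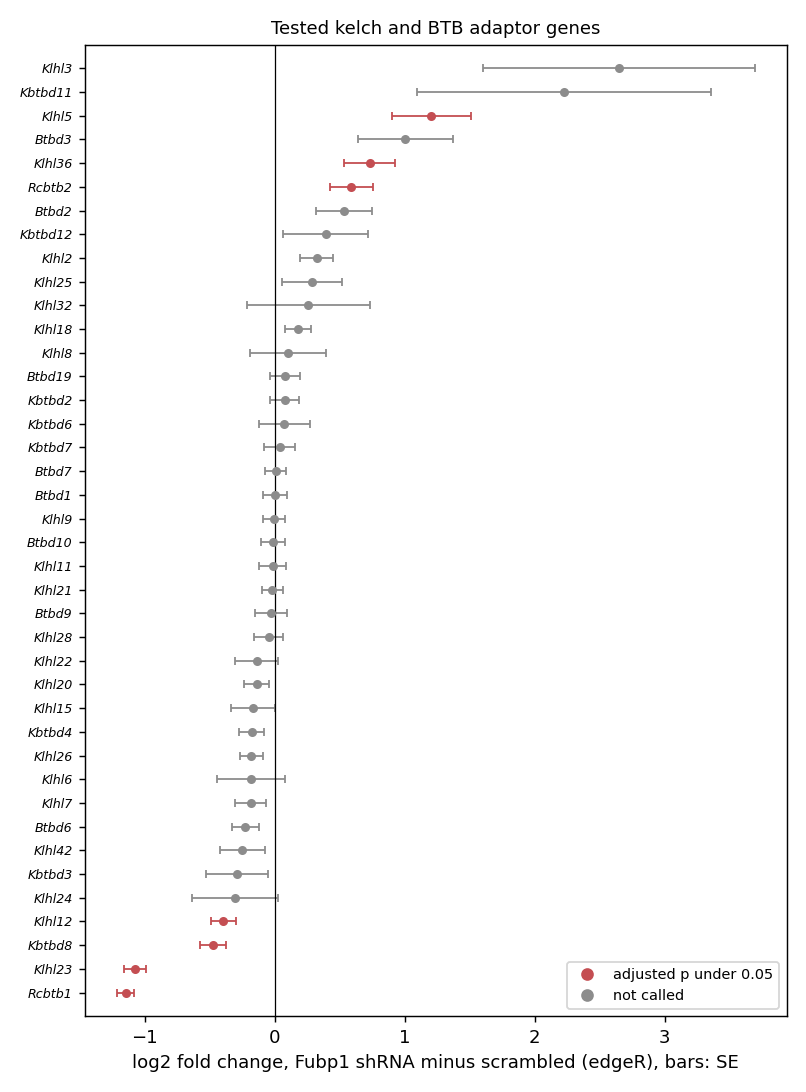
Log2 fold change (horizontal axis, Fubp1 shRNA minus scrambled) of the 40 tested members (vertical axis), with points for the edgeR estimate and bars for its SE, red where the adjusted p was under 0.05. Most points lie near 0, with Rcbtb1 at -1.15 and Klhl23 at -1.08 apart at the low end and wide bars on Klhl3 and Kbtbd11 at the high end.

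Rcbtb1 had the smallest p among the members. It encodes an RCC1-repeat BTB protein, mutated in human inherited retinal disease. The gene occupies positions 59201209 to 59237265 of chromosome 14, plus strand, in the GENCODE M21 annotation of GRCm38. It measured 68.7, 73.4, 72.9 and 62.9 CPM in the scrambled libraries against 30.9, 31.1, 32.6 and 30.9 CPM in the knockdown libraries. The 4 knockdown mice lay close together and far below the lowest scrambled library. Rcbtb1 fell from 69.5 ± 4.89 to 31.4 ± 0.817 CPM (SD, n = 4 each), or to 45.2% of the scrambled mean (log2 fold change -1.15, SE 0.07, edgeR adjusted p = 0.000152). In each of the 8 fits that left a library out, Rcbtb1 stayed called (highest adjusted p = 0.00257). Its nearest protein-coding neighbours, Gm5142 and Gm6904, measured at most 0.0899 CPM in any library.

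Rcbtb2, the paralog of Rcbtb1 on the same chromosome (73123037 to 73207843, plus strand), went the other way. It measured 9.77, 10.3, 10.7 and 8.18 CPM in the scrambled libraries and 14.2, 15.7, 10.8 and 18.0 CPM in the knockdown libraries. Knockdown replicate 3 lay only just above scrambled replicate 3, and the other 3 knockdown libraries were clearly higher. Rcbtb2 rose (log2 fold change 0.59, SE 0.17, edgeR adjusted p = 0.0452). That call held without knockdown replicate 3 (adjusted p = 0.0105) but not when any of the other 7 libraries was dropped (highest adjusted p = 0.111). Exons of Rcbtb2 share 488 bases, 5.14% of its exon length, with Rb1 on the opposite strand. Since the strand setting of the counting is not given, reads there cannot be assigned with certainty. Rb1 measured 134 ± 15.3 and 126 ± 16.9 CPM (SD, n = 4 per group; adjusted p = 0.604 by edgeR).

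The ratio of the paralogs was lower in every knockdown mouse than in any scrambled mouse. There were 7.03, 7.12, 6.81 and 7.68 Rcbtb1 counts for each Rcbtb2 count in the scrambled mice and 2.18, 1.99, 3.01 and 1.72 in the knockdown mice. This ratio restates the opposite changes of the 2 genes, so a separate test of it would add no evidence and none is given. As a mean log2 ratio (0.5 CPM added to each gene) Rcbtb1 over Rcbtb2 differed by -1.68 between the groups. Other family pairs also differed, by 0.93 for Btbd3 over Btbd6, -0.61 for Klhl2 over Klhl3 and -0.57 for Btbd1 over Btbd2. In these pairs the libraries of the groups overlapped. Kbtbd6 over Kbtbd7, which also lie on chromosome 14, differed by 0.02.

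**Figure D2:**
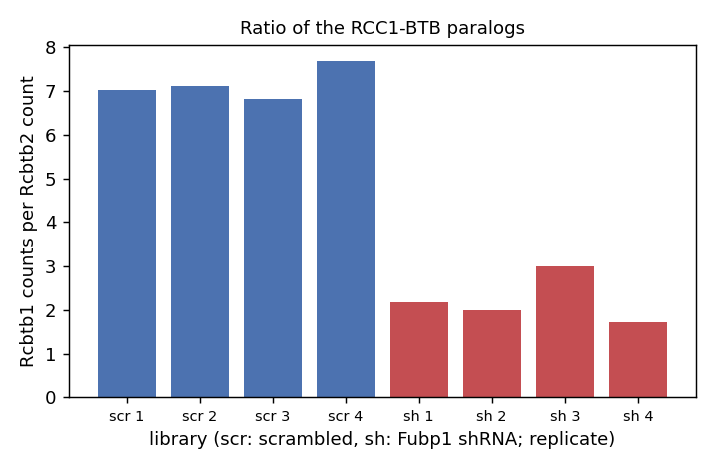
Counts of Rcbtb1 divided by counts of Rcbtb2 (vertical axis, linear from 0) in each of the 8 libraries (horizontal axis), 1 bar per library, blue for scrambled and red for Fubp1 shRNA. The scrambled libraries lie between 6.81 and 7.68 and the knockdown libraries between 1.72 and 3.01, knockdown replicate 3 being the highest of the latter.

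Klhl23, a kelch protein gene on chromosome 2 (69821944 to 69836651, plus strand), was the member with the highest level for its length in the scrambled libraries. It measured 159, 187, 168 and 153 CPM in the scrambled and 73.7, 78.5, 89.1 and 74.9 CPM in the knockdown libraries, with no overlap. Klhl23 fell from 167 ± 14.8 to 79.0 ± 7.03 CPM (SD, n = 4 each), or to 47.4% of the scrambled mean (log2 fold change -1.08, SE 0.09, edgeR adjusted p = 0.000830). Klhl23 too stayed called in all 8 fits that left a library out (highest adjusted p = 0.00645). Its neighbours on the same strand had smaller fitted changes. Phospho2, 21.9 kb upstream, was lower without passing the test (log2 fold change -0.31, SE 0.10, edgeR adjusted p = 0.0666), as was Ssb, 24.9 kb downstream (-0.16, SE 0.06, 0.0904). Differences between these neighbours and Klhl23 were not tested.

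The sequence just upstream of the RefSeq start of these genes is shown because Rcbtb1 and Klhl23 fell by a like amount in the same mice while Rcbtb2 rose. Each run is the 250 bases before the most upstream start in the RefSeq table (GRCm38.p6), 5′ to 3′ on the plus strand. Capitals mark matches on either strand to 5 short motifs, none of which overlap in these windows. The E-box, the core site of MYC and related factors, was searched as CACGTG. The site of GATA factors was searched as AGATAA and, with another opening base, as TGATAA. The site of ETS factors was taken to be CCGGAAG, that of the CCAAT box its own letters, and the TATA box was searched as TATAAA. The palindromic NRF1 site was also searched. The windows are chr14:59200978-59201227, chr2:69821691-69821940 and chr14:73142260-73142509.
Rcbtb1: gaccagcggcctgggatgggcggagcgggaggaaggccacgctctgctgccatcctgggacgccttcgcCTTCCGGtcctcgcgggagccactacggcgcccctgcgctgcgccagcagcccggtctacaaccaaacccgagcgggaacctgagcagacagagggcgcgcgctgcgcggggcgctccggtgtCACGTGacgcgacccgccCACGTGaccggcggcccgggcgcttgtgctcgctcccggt
Klhl23: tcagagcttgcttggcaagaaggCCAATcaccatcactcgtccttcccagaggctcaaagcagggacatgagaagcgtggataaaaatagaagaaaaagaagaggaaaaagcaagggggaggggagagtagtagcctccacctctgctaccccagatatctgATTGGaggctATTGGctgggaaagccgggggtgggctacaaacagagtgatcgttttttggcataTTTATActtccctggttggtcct
Rcbtb2: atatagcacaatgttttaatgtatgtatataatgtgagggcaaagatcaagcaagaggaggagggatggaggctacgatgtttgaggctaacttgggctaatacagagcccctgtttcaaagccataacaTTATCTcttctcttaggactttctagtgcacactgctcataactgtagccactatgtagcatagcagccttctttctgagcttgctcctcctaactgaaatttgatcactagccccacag

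The 3 windows shown had little in common, though this depends on the start taken. That of Rcbtb1 was 74.0% G or C with 34 CpG, and held 2 E-boxes, 58 and 40 bases before the start, and an ETS match at 181 bases. The Klhl23 window was 49.6% G or C with 4 CpG, with CCAAT boxes at 227, 88 and 78 bases and a TATA box match on the minus strand at 23 bases. The other 2 starts listed for Klhl23 held none of the searched motifs. The window of the last of them, at 69822841, was 73.6% G or C with 29 CpG, close to that of Rcbtb1. The Rcbtb2 window held a single GATA match at 120 bases. Its start, 73142510, lies inside the annotated span of the gene, which begins at 73123037, and the sequence before that span was not examined. An E-box was found in 6.02% of the 32841 promoter windows of this length and 2 or more in 0.429%. Those windows had a median of 52.4% G or C and 6 CpG, so they are not matched to the Rcbtb1 window. Among 33 of the 40 tested members with an entry in the table, E-boxes were found for Rcbtb1, Btbd7, Klhl20, Klhl22 and Klhl28, of which Rcbtb1 was the called gene. Neither Klhl12 nor Klhl5 nor Klhl36 had a match to any of the motifs, and Kbtbd8 had 3 CCAAT boxes. CCAAT boxes were found in 33.9% of all windows, GATA matches in 16.6%, TATA boxes in 12.4%, ETS matches in 6.91% and NRF1 matches in 0.783%. In the 43 windows of tested members these shares were 18.6%, 6.98%, 6.98%, 20.9% and 0%, and 13.95% held an E-box. The member windows had a median of 61.6% G or C and 16 CpG, so these shares too are not like for like. A match describes letters and does not show that a factor binds there.

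Kbtbd8 and Klhl12 also fell, by smaller amounts. Klhl12 encodes the adaptor for the COPII coat protein SEC31 and for Dishevelled. It measured 169, 182, 173 and 156 CPM in the scrambled and 117, 118, 153 and 129 CPM in the knockdown libraries (log2 fold change -0.40, SE 0.09, edgeR adjusted p = 0.0278). Knockdown replicate 3 was the closest to the scrambled libraries but still below all 4. The call on Klhl12 did not survive leaving out any of scrambled replicates 1 to 3, or knockdown replicate 1 or 2 (highest adjusted p = 0.0792). Its downstream neighbour Rabif, 3.63 kb away on the same strand, also fell (log2 fold change -0.31, SE 0.06, adjusted p = 0.0146 by edgeR), and Adipor1 on the other side had a log2 fold change of 0.09 (adjusted p = 0.279). Klhl12 occupies positions 134455531 to 134491018 of chromosome 1, plus strand.

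Kbtbd8, at positions 95117240 to 95129790 of chromosome 6, plus strand, encodes the adaptor that directs modification of the ribosome biogenesis factors TCOF1 and NOLC1. It measured 35.0, 32.0, 33.8 and 35.9 CPM in the scrambled and 24.8, 20.9, 24.0 and 28.8 CPM in the knockdown libraries. All knockdown libraries were below all scrambled ones, knockdown replicate 4 being the nearest. Kbtbd8 fell from 34.2 ± 1.69 to 24.6 ± 3.24 CPM in the mean of 4 libraries, with SD (log2 fold change -0.47, SE 0.10, edgeR adjusted p = 0.0201). The call was lost, at an adjusted p of at most 0.0507, without scrambled replicate 1 or knockdown replicate 1.

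**Figure D3:**
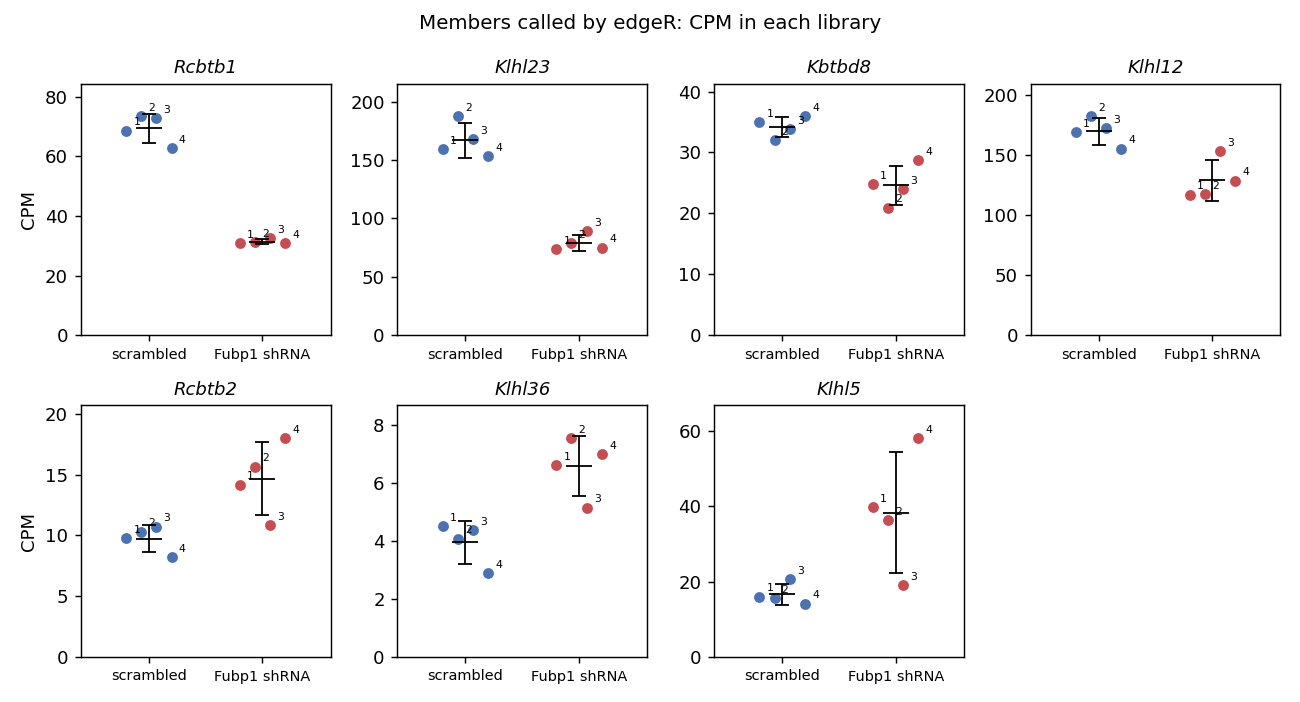
CPM (vertical axes, linear from 0) of the 7 called members in each library, 1 panel per gene, blue for scrambled and red for Fubp1 shRNA, with replicate numbers beside the points and the mean with SD in black. In the 4 genes that fell, all red points lie below all blue ones, while in Klhl5 knockdown replicate 3, at 19.0 CPM, lies within the scrambled range.

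The genes that rose did so least in knockdown replicate 3, the library among the scrambled ones on the first principal component. Klhl5, a kelch protein gene on chromosome 5 (65107539 to 65168188, plus strand), measured 15.96, 15.6, 20.6 and 14.2 CPM in the scrambled and 39.7, 36.3, 19.0 and 58.1 CPM in the knockdown libraries. Knockdown replicate 3 was below scrambled replicate 3, so the groups overlapped. Klhl5 rose to a mean of 38.3 ± 16.01 CPM from 16.6 ± 2.81 (SD, n = 4 each; log2 fold change 1.21, SE 0.30, edgeR adjusted p = 0.0348). Klhl36, on chromosome 8 (119862266 to 119876995, plus strand), measured 4.50, 4.06, 4.36 and 2.88 CPM in the scrambled and 6.61, 7.53, 5.14 and 6.99 CPM in the knockdown libraries, with no overlap. Klhl36 rose too (log2 fold change 0.73, SE 0.20, edgeR adjusted p = 0.0386). Without knockdown replicate 3 both stayed called (adjusted p = 0.00281 for Klhl5 and 0.0196 for Klhl36), and without any 1 of the other 7 libraries neither was (highest adjusted p 0.100 and 0.103). Their neighbours Tmem156 (log2 fold change 2.42) and Cotl1 (1.82) rose as well (adjusted p = 0.0488 and 0.0267 by edgeR). Tmem156 was near the floor, at 0.250 to 0.492 CPM in the scrambled and 2.05, 0.958, 0.349 and 4.24 CPM in the knockdown libraries, so its groups overlapped. Cotl1 measured 10.9 ± 3.06 and 38.6 ± 18.5 CPM (SD, n = 4 each) without overlap. On the other sides, Wdr19 (-0.05) and Usp10 (0.11) did not pass the test (edgeR adjusted p = 0.871 and 0.376).

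Several marker lists also varied among the knockdown libraries. Among the knockdown libraries, the 3 genes that rose were lowest in replicate 3, where the early granulocyte sum was 85.8 CPM, within its scrambled range. Klhl5 and Rcbtb2 were highest in knockdown replicate 4, where the early granulocyte sum was 3583 CPM. None of the 5 early granulocyte markers passed the threshold (adjusted p of 0.0522 to 0.0717 by edgeR). Their fitted log2 fold changes were 3.27 to 3.70, and all 5 had an unadjusted p under 0.05, beside 33.5% of all tested genes. Monocyte and macrophage markers, 2 of 6 of which were tested, summed to 3.94 to 8.99 CPM in the scrambled and to 38.7, 11.2, 7.90 and 41.4 CPM in the knockdown libraries. Mast cell and basophil markers summed to 1.08 to 13.5 CPM in the scrambled and to 60.6, 10.9, 1.14 and 23.3 CPM in the knockdown libraries, again lowest in replicate 3. Progenitor markers were at 481, 477, 354 and 542 CPM in the knockdown libraries (scrambled 440.0 to 752 CPM). Gene by gene, the fitted change was above 0 in 5 of these 8 and below 0 in 3, with a median log2 fold change of 0.81 and 0 called. Endothelial and stromal markers stood apart in knockdown replicate 1, at 729.6 CPM, against 13.5 to 42.1 CPM in the other knockdown and 43.0 to 56.3 CPM in the scrambled libraries. Mature neutrophil markers summed to 0.886, 8.85, 0.666 and 21.3 CPM in the knockdown libraries (scrambled 1.21 to 6.34). Erythroid markers summed to 4160, 3413, 5118 and 4221 CPM (scrambled 3437 to 4413). Immediate early genes, a check of RNA handling, summed to 3230, 5809, 6330 and 2288 CPM (scrambled 1984 to 4190). The part of any of these, or of the B and T cell lists, in the rise of the 3 genes was not tested. Rcbtb1, Klhl23, Kbtbd8 and Klhl12 were below all scrambled libraries in knockdown replicate 3 too. Megakaryocyte markers were higher in all 4 knockdown libraries, replicate 3 included. The part of megakaryocyte markers, or of the other lists, in the fall of these 4 genes was not tested.

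Without knockdown replicate 3, 11 of 42 tested members were called, beside 24.7% of all tested genes. The same 7 were called, with Btbd3, Klhl2, Klhl3 and Kbtbd11 added, all higher. Without scrambled replicates 1, 2, 3 or 4, in that order, 2, 3, 3 and 4 members were called, beside 5.4%, 3.8%, 4.76% and 13.4% of all tested genes. Without knockdown replicates 1, 2 or 4, 2, 3 and 4 members were called, beside 7.08%, 7.24% and 10.1%. Rcbtb1 and Klhl23 were among them each time. Klhl3, which with Klhl2 targets the WNK kinases of salt transport, was at most 0.400 CPM in the scrambled libraries and 0.725, 0.396, 0.0952 and 3.20 CPM in the knockdown libraries. With all libraries its log2 fold change was 2.65 (SE 1.04, adjusted p = 0.116 by edgeR), and knockdown replicate 4 held 147 of its counts against 2 to 18 in each other library. Kbtbd11 was likewise highest in knockdown replicate 4, at 6.40 CPM, and at 0.0317 CPM in replicate 3 (scrambled 0.167 to 0.831 CPM, adjusted p = 0.207). Btbd3 measured 1.58 ± 0.174 and 3.17 ± 1.68 CPM (SD, n = 4 per group; adjusted p = 0.0914 by edgeR), with 5.46 CPM in knockdown replicate 4 and 1.43 in replicate 3. Klhl2 ran from 12.9 to 15.2 CPM in the scrambled and from 14.3 to 20.0 CPM in the knockdown libraries (log2 fold change 0.32, SE 0.13, adjusted p = 0.109 by edgeR).

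**Figure D4:**
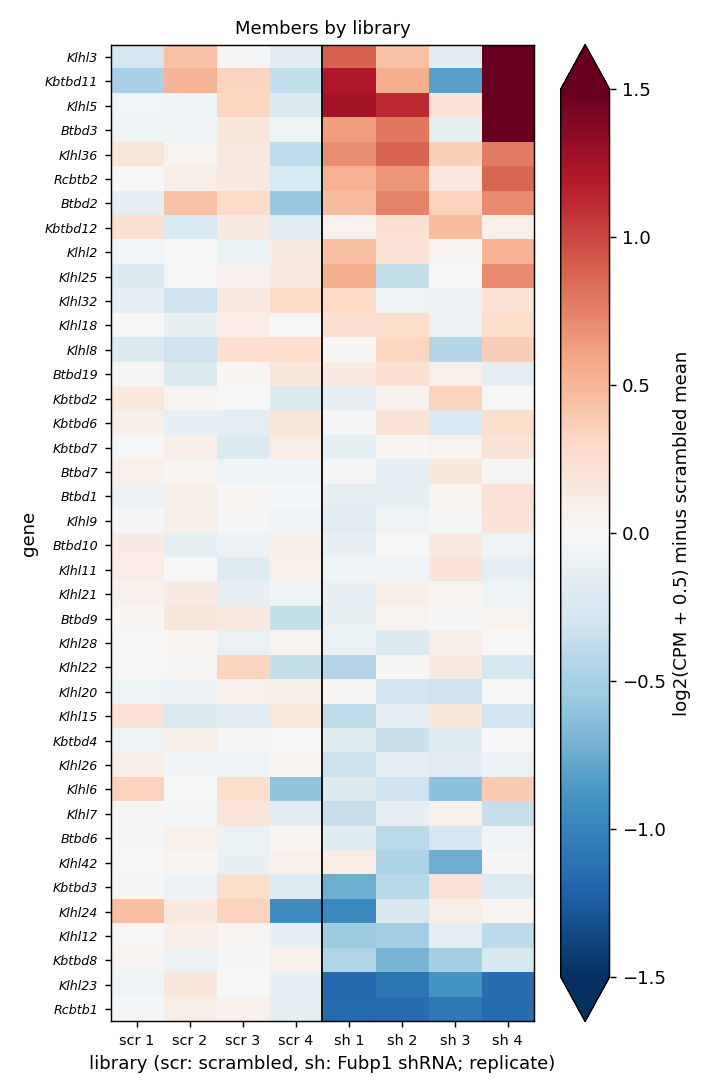
Log2(CPM + 0.5) of each tested member (vertical axis) in each library (horizontal axis, scr for scrambled and sh for Fubp1 shRNA) minus its mean in the 4 scrambled libraries, red for higher and blue for lower, with colours saturated beyond the limits of the bar. Rows follow the log2 fold change. Rcbtb1 and Klhl23 are blue in all 4 knockdown columns, while the red rows Klhl3, Kbtbd11, Klhl5 and Btbd3 are pale or blue in knockdown replicate 3.

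None of the other abundant adaptors was called. Kbtbd2, the adaptor for the p85 alpha subunit of phosphoinositide 3-kinase, measured 63.5, 58.4, 57.2 and 48.9 CPM in the scrambled and 52.2, 59.5, 72.1 and 56.8 CPM in the knockdown libraries (log2 fold change 0.08, SE 0.11, adjusted p = 0.682 by edgeR). Klhl9, an adaptor for the mitotic kinase Aurora B, measured 56.8, 61.9, 57.5 and 56.1 CPM and 52.0, 55.1, 57.3 and 66.6 CPM (-0.01, SE 0.08, adjusted p = 0.965). Klhl22, an adaptor for the mitotic kinase PLK1 and the nutrient sensing protein DEPDC5, measured 51.4, 51.9, 64.8 and 39.9 CPM and 37.8, 51.9, 56.6 and 42.5 CPM (-0.14, SE 0.17, adjusted p = 0.606). In all 3 the groups overlapped, and the spread within each group exceeded the difference of the means.

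Members with other known substrates were likewise not called. Klhl21, which also acts on Aurora B, had a log2 fold change of -0.02 (SE 0.08), and Klhl20, the adaptor for DAPK1 and PML, of -0.14 (SE 0.10). Klhl25, the adaptor for 4E-BP1, measured 11.2 ± 1.13 and 13.6 ± 4.62 CPM (SD, n = 4 per group), and Klhl15, the adaptor for a regulatory subunit of protein phosphatase 2A, 11.4 ± 1.83 and 10.2 ± 1.85 CPM. Klhl6, a lymphoid gene, measured 24.6 ± 6.69 and 21.7 ± 6.93 CPM while B cell markers summed to at most 3.71 CPM in any library. Klhl24 varied widely among the scrambled libraries, at 47.6, 38.2, 44.0 and 17.8 CPM, against 17.5, 29.2, 37.1 and 35.5 CPM in the knockdown libraries. Among the Btbd genes, Btbd1 and Btbd2 encode paralogs known to bind topoisomerase I. Btbd1 measured 42.6 ± 2.30 and 42.5 ± 5.31 CPM, and Btbd2 17.5 ± 5.37 and 25.5 ± 3.36 CPM (adjusted p = 0.999 and 0.118 by edgeR). None of the 8 tested Btbd genes was called by edgeR, with 2 at an unadjusted p under 0.05, beside 15.3% and 33.5% of all tested genes. With so few genes, nothing can be read from that count. Of the 33 tested members that were not called, 26 had a fitted log2 fold change within 0.3 of 0. Beside those named, these 33 include Btbd6, Klhl26, Kbtbd4, Klhl18, Klhl7, Klhl42, Kbtbd12, Kbtbd3, Btbd19, Klhl32, Klhl28, Kbtbd6, Klhl8, Kbtbd7, Btbd9, Klhl11, Btbd10 and Btbd7. Klhl26 was the member whose groups did not overlap without a call, at 18.3 to 20.6 CPM in the scrambled and 15.3 to 18.1 CPM in the knockdown libraries (adjusted p = 0.192 by edgeR). Exons of Kbtbd4 share 52.8% of their length with Ptpmt1 on the opposite strand, so its counts are uncertain.

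Per kb of exon, Klhl23 had the highest level of the family in the scrambled libraries, 33.9 ± 3.01 CPM per kb (SD, n = 4). It was followed by Klhl12 (14.9 ± 0.975), Kbtbd2 (13.96 ± 1.49), Klhl9 (13.9 ± 0.628), Btbd1 (12.3 ± 0.662) and Rcbtb1 (11.6 ± 0.814). The levels of Klhl12, Kbtbd2 and Klhl9 lay within their spread of each other. In the knockdown libraries Klhl23 was at 16.05 ± 1.43 CPM per kb, close to Kbtbd2 at 14.7 ± 2.08, and Rcbtb1 was at 5.23 ± 0.136. The median over tested members, all libraries together, was 3.52 CPM per kb, and that over the tested genes with a known length 5.604. Of the 40 tested members, 31 averaged at least 10 CPM, 6 between 1 and 10, and 3 under 1.

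**Figure D5:**
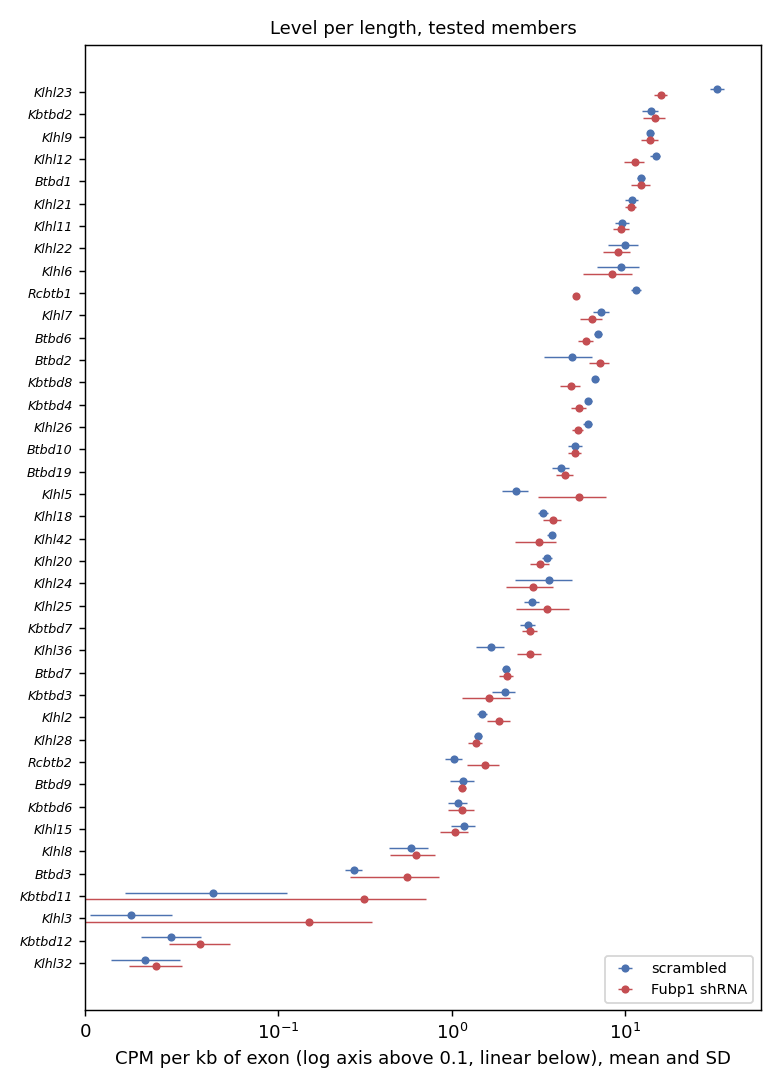
Mean level of each tested member in CPM per kb of exon (horizontal axis, logarithmic above 0.1 and linear below) with SD over 4 libraries, blue for scrambled and red for Fubp1 shRNA, ordered by the mean of all libraries. Klhl23 is at the top in both groups, and Klhl32, Kbtbd12, Klhl3 and Kbtbd11 have the lowest means over all libraries.

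The 50 members that were not tested were at or near the detection limit. No count was seen in any library for 35 of them: all 30 genes of the Btbd35f cluster on the X chromosome, and Btbd17, Klhl1, Klhl14, Klhl34 and Klhl38. The other 15 had counts but measured at most 0.631 CPM in any library, a value reached by Kbtbd13 in knockdown replicate 4. They include Klhl40, Klhl41 and Klhl31, known from muscle, and Klhl10, known from spermatids. The rest were Klhl4, Klhl13, Klhl29, Klhl30, Klhl33, Klhl35, Btbd11, Btbd16, Btbd18 and Kbtbd8os, a transcript opposite Kbtbd8.

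The machinery that the adaptors dock onto was examined as a separate list. Of 25 tested genes of the cullin-3 core, the NEDD8 pathway and the COP9 signalosome, 0 rose and 1 fell, with a median log2 fold change of -0.04, and 4 had an unadjusted p under 0.05. Over all tested genes 15.3% were called and 33.5% had such an unadjusted p. Cul3 measured 183 ± 10.7 and 195 ± 11.4 CPM and Rbx1, its RING partner, 51.5 ± 2.45 and 49.9 ± 3.28 CPM (SD, n = 4 per group; adjusted p = 0.347 and 0.693 by edgeR). Cops7b, a COP9 subunit, measured 61.0, 57.4, 53.5 and 61.8 CPM in the scrambled and 45.5, 45.3, 48.6 and 41.7 CPM in the knockdown libraries, with no overlap. Cops7b fell (log2 fold change -0.37, SE 0.07, edgeR adjusted p = 0.0156) and stayed called in all 8 fits that left a library out (highest adjusted p = 0.0467). Its paralog Cops7a had a log2 fold change of -0.18 (adjusted p = 0.184). DESeq2 called 2 genes of this list higher.

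Of 26 tested BTB adaptors of cullin-3 with other names, 3 rose and 2 fell (median log2 fold change 0.09). The share called, 19.2%, was near the 15.3% of all tested genes. Enc1, a kelch protein gene, measured 12.3, 10.2, 8.78 and 8.86 CPM in the scrambled and 5.84, 4.39, 3.01 and 4.09 CPM in the knockdown libraries. Enc1 fell (log2 fold change -1.21, SE 0.22, edgeR adjusted p = 0.0120) and stayed called in all 8 such fits (highest adjusted p = 0.0454). Lztr1, an adaptor for RAS proteins, fell by 0.24, and the kelch gene Ivns1abp rose by 0.20 (adjusted p = 0.0300 and 0.0302). Kctd17 rose, from 0.416 ± 0.346 to 3.61 ± 2.64 CPM, as did Kctd11, from 1.87 ± 0.657 to 4.26 ± 1.61 CPM (SD, n = 4 each; adjusted p = 0.0343 and 0.0490 by edgeR). Kctd17 was at 0.793 CPM in knockdown replicate 3, within the scrambled range. Lztr1, Ivns1abp, Kctd17 and Kctd11 stayed called in 3, 2, 2 and 1 of these 8 fits (highest adjusted p = 0.126). Keap1, the adaptor for NRF2, had a log2 fold change of 0.10 (adjusted p = 0.210).

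Of 23 tested transcripts of reported substrates and partners, 3 rose and 1 fell, with a median log2 fold change of 0.05. Here too the share called, 17.4%, was near the background of 15.3%. Ubiquitylation acts on proteins, so these values describe transcripts only. Sec31a, the substrate of the adaptor encoded by Klhl12, rose by 0.24 (SE 0.06, edgeR adjusted p = 0.0348). Rc3h1, which encodes Roquin-1, rose by 0.22 (SE 0.05, edgeR adjusted p = 0.0232). Wnk4, a target of the Klhl2 and Klhl3 products, measured 3.51 ± 1.31 CPM and rose to 6.88 ± 1.37 CPM (SD, n = 4 each; adjusted p = 0.0457 by edgeR). Rcor1, the CoREST scaffold and a target of the Kbtbd4 product, fell by 0.28 (SE 0.07, adjusted p = 0.0287 by edgeR). Tcof1 and Nolc1, partners of the Kbtbd8 product, had log2 fold changes of 0.02 and -0.27 (adjusted p = 0.826 and 0.0911 by edgeR). With a library left out, Rc3h1 stayed called in 5 of 8 fits, Wnk4 and Rcor1 in 2 and Sec31a in 1 (highest adjusted p = 0.122).

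In the authors' deposited table, 8 of the 43 members with an adjusted p were called, beside 21.3% of all genes with one. They were the 7 called here, in the same directions, and Btbd3 (adjusted p = 0.0454 in the authors' deposited table). The authors' deposited log2 fold changes were -1.14 for Rcbtb1, -1.06 for Klhl23, 1.04 for Klhl5, 0.66 for Klhl36 and 0.55 for Rcbtb2. DESeq2 called 9 of 42 members, the same 7 with Btbd3 and Klhl3, beside 23.1% of all genes it tested. By limma-voom 5 members were called, without Klhl5 and Rcbtb2, beside 13.1%. With the replicate number as a block, Rcbtb1 and Klhl23 were called, beside 2.97% of all tested genes.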

How the data were processed

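Per the labels' protocols, RNA was taken from marrow cells sorted into TRIzol, and libraries were made from 500 ng with a strand-marking kit after ribosomal RNA removal. The deposited values are whole-number read counts per gene, not normalized by the authors. CASAVA 1.8 and DESeq2 1.18.1 are named in the submitters' processing notes, and R 3.4.3 with biomaRt 2.34.2 in the series' design text. Aligner, counter, strand setting and build: not given in the sources used here. In addition, the authors deposited log2 fold changes, p-values and a signal column, the mean of scaled counts, with a Wald score; the last pair was not used.

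The test was that of edgeR 4.0.16 (R 4.3.3): filterByExpr, TMM factors (0.965 to 1.03), a robust quasi-likelihood fit with group as the only term, two-sided, Benjamini-Hochberg adjustment over all 13462 tested genes, threshold 0.05. SE is the log2 fold change divided by the square root of F. CPM used the same scaling. On simulated data with 13462 genes this fit recovered 26 of 67 true changes of 1.5-fold, 38 of 67 of 2-fold and 51 of 66 of 4-fold, and made 2 false calls. The simulated counts were drawn gene by gene, without the shifts shared across genes that these libraries show. The simulation therefore does not tell how often calls on these data are right. DESeq2 1.42.0 and limma 3.58.1 served as alternatives. Chi-square per degree of freedom between libraries of a group was 10.7 to 88.9, so none was a copy. Columns were matched by the number shared with the sample description. All 90 members matched GENCODE M21 by identifier, which gave positions and the exon union for lengths.

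The members and gene lists were chosen with earlier results of these data known. Named with every library's value were members called over all genes, the 6 tested members of highest mean CPM, the nearest relative of a called member, and Fubp1. Of each other list, called genes were named, and further members by their known roles. Btbd3, Klhl3, Kbtbd11, Klhl24 and Klhl26 were singled out after their values were seen.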

Additional observations from a re-analysis of the deposited data

Results flagged for a closer look

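Among the 80 sets of 4 libraries (40 tested members in each group), 3 held a library whose gap to the nearest other took up more of the set's range than Dixon's critical value allows; chance gives about 1 in 20 such sets. Rcbtb1 in knockdown replicate 3 was at 32.6 CPM, against 30.9 to 31.1 CPM in the other knockdown libraries, a small gap within a narrow range. Klhl18 in the same library was at 22.2 CPM, below the 27.9 to 28.5 CPM of the others. Btbd3 in scrambled replicate 3 was at 1.84 CPM, against 1.48 to 1.51 CPM in the other scrambled libraries.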

How the results depend on the processing

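No alternative reversed the direction of a called gene, and the median log2 fold change of the members stayed within the spread between libraries under every alternative. Over all genes 2062 were called, 3588 with DESeq2 and 526 to 3425 with 1 library left out (3425 without knockdown replicate 3). Members called higher, 3 in the main test, numbered 0 without a filter on low counts, 5 with DESeq2, 1 with limma-voom and 0 to 7 with 1 library left out, while those called lower, 4, numbered 2 to 4 with 1 library left out. With 1 library left out, the cullin-3 core list had 0 to 1 genes called higher, the other BTB adaptors 0 to 3 higher and 1 to 3 lower, and the substrates 0 to 3 higher and 0 to 2 lower. DESeq2 called 2 core genes higher. Without the filter 1 other BTB adaptor and 1 substrate were called higher, and limma-voom called 1 other BTB adaptor higher. Fubp1 passed the threshold without the filter (adjusted p = 0.0365) and with DESeq2 (0.0145).

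Replicate numbers did not pair the samples: the 4 correlations of same-numbered libraries' deviations ran from -0.53 to -0.02, and 0 of 4 pairs correlated best with their own number. With the number as a block 400 genes were called, among them 0 members higher and 2 lower. In the same block fit 0 core genes were lower, 0 other BTB adaptors higher and 1 lower, and 0 substrates higher and 0 lower. Genes under about 1 CPM, such as Klhl3, rest on few counts per library. Kbtbd11 averaged 0.474 CPM in the scrambled and 2.24 CPM in the knockdown libraries. Knockdown replicate 4 held 294 of its counts, against 1 to 41 in each other library.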
